A study of Mus musculus with 20 samples.

Results

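The direct differentiation of wild-type (WT) mouse ES cells into primitive endoderm (PE) was examined across all genes measured. It rests on 4 of the 20 arrays of the series, 2 of WT PE cells and 2 of the WT ES cells they came from. All 18193 genes with a probe set of their own were compared, taking for each gene 1 probe set, the brightest on average across the series. The question of the comparison was how the transcriptome of an ES cell changed once Gata4 was active in it. Both states came from 1 transgenic clone of the 129sv/Jae ES line J1, called J1G4.2 in the labels and by a longer form of that name in the study's methods, so that a property of the clone cannot be told apart from one of the cell type.

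Primitive endoderm is the epithelium that forms on the blastocoel side of the inner cell mass and later gives visceral endoderm, which absorbs and secretes nutrients, and parietal endoderm, which lays down a thick basement membrane. It separates from the pluripotent epiblast under FGF signals, and the GATA factors Gata6 and Gata4 mark it and can impose its fate on ES cells. ES cells themselves are held in the pluripotent state by a network of factors around Oct4 (Pou5f1), Sox2 and Nanog, with the cytokine LIF in the medium.

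WT PE cells had received 100 nM dexamethasone (Dex) for 4 days in the ES medium with LIF, and WT ES cells were the same clone without Dex. Both carried Gata4GR, a CAG-driven fusion of Gata4 with the part of the human glucocorticoid receptor that binds hormone, so Dex also reached any receptor of the cells themselves and no array of WT ES cells treated with Dex but lacking the fusion was used here. The same step was followed in PE and ES cells of 1 Gata4GR clone that lacked both de novo DNA methyltransferases, Dnmt3a-/-Dnmt3b-/- (DKO), 2 arrays each. Sorted WT Flk1(+) mesoderm (2 arrays) served for comparison of levels. Its replicate 1 came from the parental line without the transgene and replicate 2 from the transgenic clone. The WT cells grown on from this mesoderm for 4 days with Dex (Dex+, 2 arrays) or without it (Dex-, 2 arrays) served likewise.

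The values are log2 RMA summaries, where a difference of 1 is a 2-fold change of signal, and levels of different genes are not compared because each probe set responds differently. The 2 WT PE arrays correlated at 0.996 and were at least 2-fold apart for 20 genes, and the 2 WT ES arrays correlated at 0.994 with 107 genes that far apart. A WT PE array correlated with a WT ES array at 0.939 to 0.943, and with a DKO PE array at 0.984 to 0.987. No PE array shared a scan day or a chip lot with an ES array, so these cannot be told apart from the step itself. Housekeeping genes gave a check of scale: none of 10 passed the test, and their median change was -0.14, with Actb at 14.01 and 14.05 in PE arrays and 13.94 and 13.91 in ES arrays. The p-values measure the spread between arrays that the labels call biological replicates, pooled over all 10 groups of the series. The sorted Flk1(+) groups add to it, with 880 (WT) and 698 (DKO) genes at least 2-fold apart. In each of them 1 array came from the parental line without the transgene, and the 2 arrays differed in scan day and chip lot. The error therefore also holds these differences. With 2 arrays against 2 an exact permutation test cannot give a two-sided p below 0.333, so the limma model over all arrays was used for every test.

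Many genes differed between PE and ES cells. Of 18193 genes, 1397 (7.68%) rose and 1191 (6.55%) fell at least 2-fold with an adjusted p under 0.05, while the median change of all genes was 0.02. These shares stand as the background for the counts of the gene lists below, which were chosen with earlier results of these data known and are given as a description. Large increases outnumbered large decreases: 178 genes rose and 64 fell at least 8-fold, 75 rose and 9 fell at least 16-fold, and 31 rose and 0 fell at least 32-fold. The level in ES cells was below the median level of all genes (6.92) for 540 of the genes that rose, and the level in PE cells was below it for 514 of those that fell. The standard error of a WT change was 0.18 at the median over genes. Of 151 genes followed here that passed and had several probe sets, the mean of all of them gave a change more than 1.5 times smaller for 52 and larger for 2, with no change of sign.

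**Figure D1:**
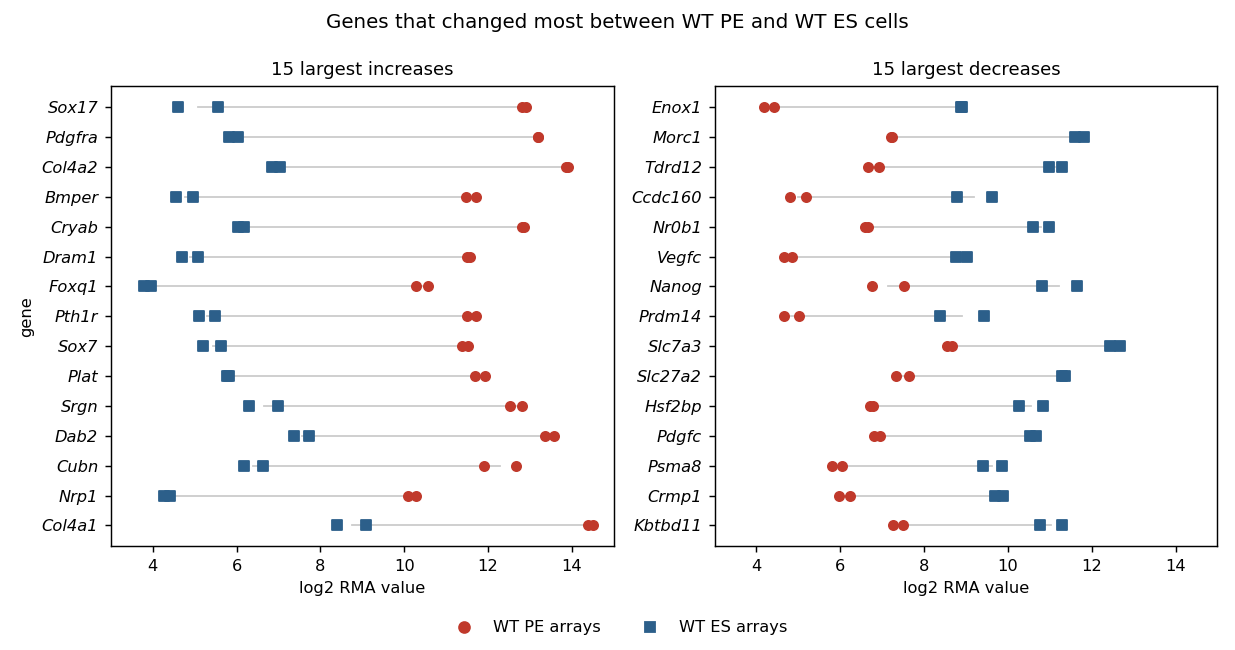
Log2 RMA values (x axis) of the 15 genes with the largest increase (left panel) and the 15 with the largest decrease (right panel) that passed the test. Circles are the 2 WT PE arrays and squares the 2 WT ES arrays of each gene (y axis), joined at their means. In every gene shown the 2 groups do not overlap, which was a condition of the choice.

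The genes with the largest increases were Sox17, Pdgfra, Col4a2, Bmper, Cryab, Dram1, Foxq1, Pth1r, Sox7, Plat, Srgn, Dab2, Cubn, Nrp1 and Col4a1, with changes from 5.69 to 7.77. They held transcription factors, surface receptors, basement membrane collagen, uptake receptors and a proteoglycan of secretory granules. Dram1, a lysosomal membrane protein linked to autophagy, had 11.50 and 11.56 in PE arrays, against 5.07 and 4.70 in ES arrays, a change of 6.65 ± 0.35 (model SE; adjusted p = 5.49e-09). Cryab, a small heat shock protein, had 12.80 and 12.87 in PE arrays, against 6.18 and 6.04 in ES arrays, but the changes of its 3 probe sets ran from 0.02 to 6.72, so the change depends on the probe set. Nrp1, a co-receptor for semaphorins and VEGF, had 10.29 and 10.09 in PE arrays, against 4.41 and 4.27 in ES arrays, and its 4 probe sets changed by 1.08 to 5.85.

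Among the largest decreases, from -4.60 to -3.65, were Enox1, Morc1, Tdrd12, Ccdc160, Nr0b1, Vegfc, Nanog, Prdm14, Slc7a3, Slc27a2, Hsf2bp, Pdgfc, Psma8, Crmp1 and Kbtbd11. Growth factors and transporters stood among them as well as germ line and stem cell genes. Changes of the probe sets ran from -3.65 to -0.18 for Kbtbd11, from -3.80 to -0.73 for Hsf2bp and from -4.60 to -1.61 for Enox1. Pdgfc, a ligand of the receptor Pdgfra, had 6.95 and 6.81 in PE arrays, against 10.53 and 10.67 in ES arrays, a change of -3.72 ± 0.85 (adjusted p = 0.00371), while Pdgfra itself was at 13.19 in both PE arrays, against 6.03 and 5.81 in ES arrays. Receptor and ligand thus lay on opposite sides of the comparison, and Pdgfa, the other ligand listed, was lower by less than 2-fold, at 7.82 and 8.04 in PE arrays and 8.90 and 8.55 in ES arrays. Slc7a3, a transporter of cationic amino acids, fell by 3.94 on the log2 scale, with 8.55 and 8.66 in PE arrays, against 12.67 and 12.43 in ES arrays.

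Of 17 endoderm transcription factors 8 rose, 2 fell and 7 did not pass, beside 7.68% of all genes that rose, and the median change was 0.87. Gata4 had 10.25 and 10.76 in PE arrays, against 5.21 and 5.49 in ES arrays, a change of 5.16 ± 0.20 (adjusted p = 2.23e-10), and its 2 probe sets changed by 2.71 and 5.16. The fusion gene was present in both states, and probe sequences were not used to tell the transgene from the endogenous gene. Gata6, the partner factor that acts at the start of the lineage in the embryo, had 11.15 and 11.27 in PE arrays, against 5.61 and 5.78 in ES arrays, and its 3 probe sets changed by 0.35 to 5.52 (mean 3.41).

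SOX and FOX factors rose as well. Sox7, an F-group SOX factor like Sox17, had 11.52 and 11.39 in PE arrays, against 5.64 and 5.21 in ES arrays, a change of 6.03 ± 0.23, while its other probe set changed by 1.44 (mean of both 3.73). Foxa2, a pioneer factor of endoderm, had 10.14 and 10.10 in PE arrays, against 5.94 and 4.53 in ES arrays, a change of 4.89 ± 0.45. The ES arrays of Foxa2 lay further apart than the PE arrays, but both were far below them. Hhex, a homeobox factor of early endoderm, rose less, by 1.18 ± 0.22, with 9.24 and 9.07 in PE arrays, against 8.10 and 7.85 in ES arrays.

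Foxa1 and Gata5, further factors of endoderm, did not pass. Foxa1 had 5.15 and 5.32 in PE arrays and 5.80 and 4.60 in ES arrays, and Gata5 had 4.44 and 4.42 in PE arrays and 4.52 and 4.59 in ES arrays. Otx2, which patterns anterior visceral endoderm and is also an epiblast factor, fell by 2.66, with 7.24 and 7.44 in PE arrays, against 10.23 and 9.76 in ES arrays. Prdm1, a repressor active in germ cell and visceral endoderm precursors, fell by 3.45, with 5.64 and 5.19 in PE arrays, against 8.26 and 9.47 in ES arrays. Hnf4a, a nuclear receptor of visceral endoderm and liver, passed on its chosen probe set with a change of 1.53, but with probe sets named _x_at and _s_at left out it changed by -0.00327 (adjusted p = 0.994).

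GATA factors bind short sites around the letters GATA, so the promoters of the factors and leading genes were read for them where a window was available. The promoter windows of RefSeq (GRCm38.p6), 250 bases before and 50 after a transcript start, were searched for AGATAA or TGATAA on either strand. Of the 15 leading increases, 10 had such a window and 1, Dab2, held a match, in 1 of its 2 windows. No window was available for Gata4, Gata6, Sox17, Sox7 and Foxq1, so these factors could not be read. That window of Dab2 (chr15:6299539-6299838, + strand) held one upstream and one on the other strand just downstream of the start, and 1 of the 3 windows of Foxa2 (chr2:148045415-148045714, - strand) held one upstream. The other windows of both genes held none. Both are shown because they held the letters, which are in capitals, written 5′ to 3′ on the strand of the gene:
Dab2: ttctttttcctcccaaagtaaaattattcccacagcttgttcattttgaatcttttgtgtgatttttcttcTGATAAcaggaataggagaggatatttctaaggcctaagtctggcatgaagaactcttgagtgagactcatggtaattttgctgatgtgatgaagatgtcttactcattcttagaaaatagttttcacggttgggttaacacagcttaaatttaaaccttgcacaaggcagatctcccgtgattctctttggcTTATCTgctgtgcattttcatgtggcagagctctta
Foxa2: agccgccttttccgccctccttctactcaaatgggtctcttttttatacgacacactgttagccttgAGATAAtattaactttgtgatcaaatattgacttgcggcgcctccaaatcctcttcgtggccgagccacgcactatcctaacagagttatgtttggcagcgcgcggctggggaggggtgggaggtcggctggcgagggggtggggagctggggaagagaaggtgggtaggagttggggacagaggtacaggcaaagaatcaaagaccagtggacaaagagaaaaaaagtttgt
In Dab2 the matches lay 179 bases before and 14 bases after the start, and in Foxa2 183 bases before it. Over all genes the motif was not more frequent among those that changed: at least 1 window held it in 151 of 1147 genes that rose (13.2%), 102 of 952 that fell (10.7%), 5 of 56 that rose at least 16-fold (8.93%) and 2162 of 14452 measured genes with a window (15%). These are counts of letters in a short window and carry no test.

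The pluripotency network fell in large part but not evenly. Of its 26 measured genes, 20 fell, 2 rose and 4 did not pass, with a median change of -2.32, beside 6.55% of all genes that fell. Pou5f1 (Oct4) had 9.34 and 9.45 in PE arrays, against 12.21 and 12.29 in ES arrays, a change of -2.86 ± 0.23 (adjusted p = 3.44e-07). Sox2, the partner of Oct4 on DNA, had 9.67 and 9.66 in PE arrays, against 12.57 and 12.83 in ES arrays. In bulk RNA fewer ES cells in the dish and less RNA per cell cannot be told apart. The study reports from staining that all WT cells given Dex in LIF medium carried Dab2 protein. How this bears on the RNA levels of these arrays was not tested.

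Eras, an ES cell Ras protein, fell by 3.61 ± 0.54, with 6.64 and 6.75 in PE arrays, against 10.50 and 10.10 in ES arrays. Klf2, a factor of naive pluripotency, fell by 2.97 ± 0.35, with 8.32 and 8.92 in PE arrays, against 11.30 and 11.87 in ES arrays. Esrrb, an orphan nuclear receptor of the same network, fell by 2.33 ± 0.25. Not all members fell. Klf4, a zinc finger factor of ES cells and epithelia, rose by 1.38 ± 0.18, with 12.76 and 12.55 in PE arrays, against 11.16 and 11.39 in ES arrays. Tbx3 rose too on its chosen probe set, by 1.46, but changed by 0.73 as the mean of all its probe sets. Sall4, a zinc finger factor of ES cells and extraembryonic endoderm, had 13.08 and 12.88 in PE arrays and 13.17 and 13.02 in ES arrays, and Dppa5a, an RNA-binding protein, had 14.08 and 13.99 in PE arrays and 14.18 and 14.32 in ES arrays, neither passing the test.

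**Figure D2:**
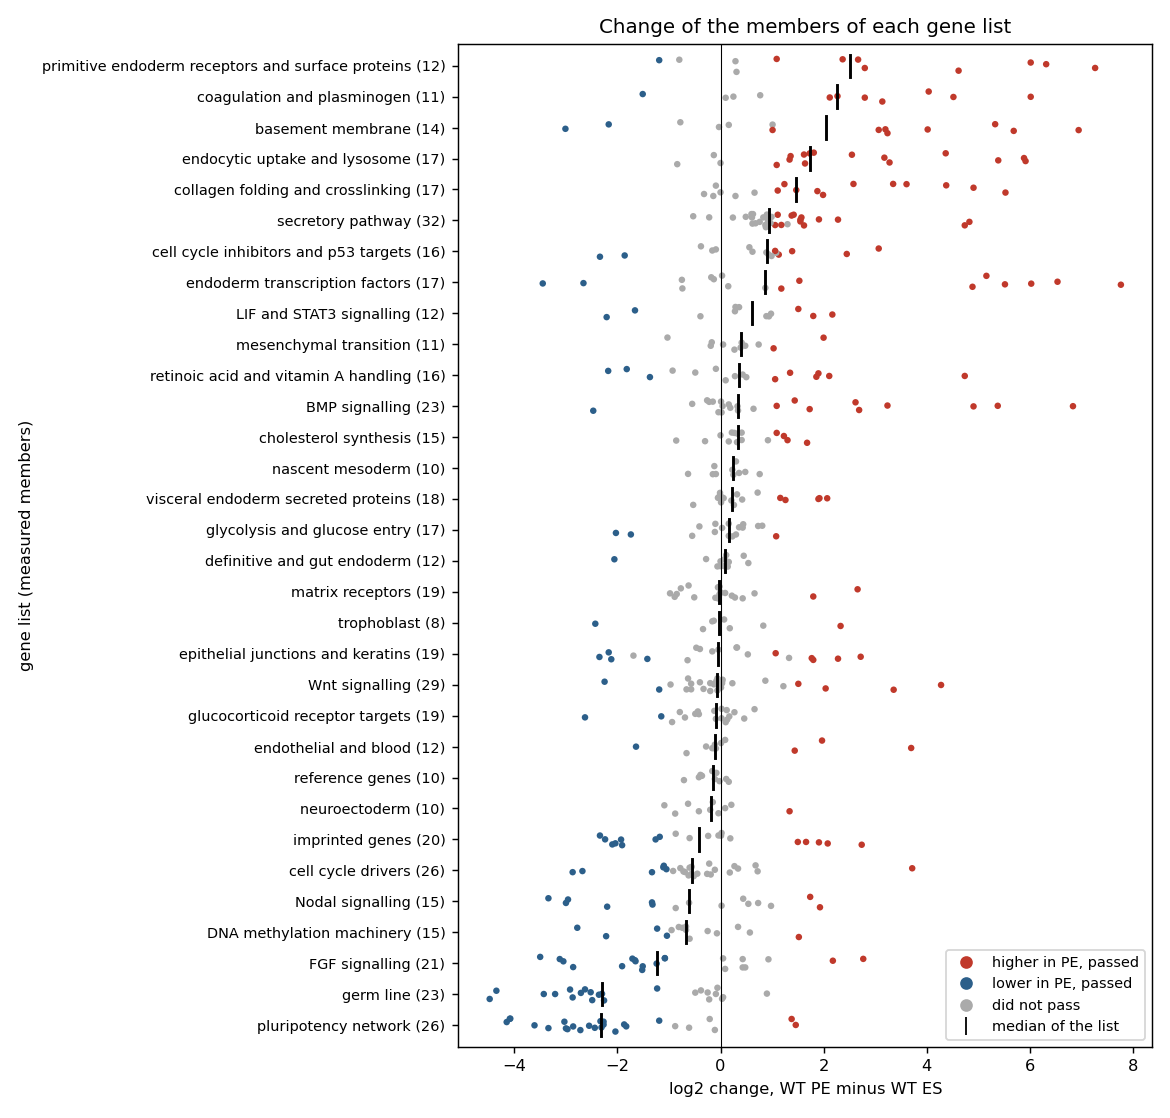
Log2 change from WT ES to WT PE (x axis) of every measured member of each gene list (y axis, number of members in brackets). Red and blue points passed the test as higher or lower in PE cells, grey points did not, and the black bar is the median of the list, from -2.32 for the pluripotency network to 2.52 for receptors and surface proteins of primitive endoderm.

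Of 12 receptors and surface proteins of primitive endoderm 8 rose, 1 fell and 3 did not pass, with a median change of 2.52. The list holds Pdgfra, Pth1r and Srgn, which are among the largest increases, and was chosen with these known, so the count is not independent evidence of a direction. The call of Cd9, a tetraspanin (1.09 with all arrays), was lost without any 1 of the 4 arrays, with adjusted p between 0.0511 and 0.137. Srgn, the core protein of granule proteoglycans, rose by 6.02 ± 0.28, with 12.52 and 12.82 in PE arrays. Aqp8, a water and peroxide channel, had 10.45 and 9.86 in PE arrays, against 5.71 and 5.36 in ES arrays, a change of 4.62 ± 0.22 (adjusted p = 1.8e-09). Kit, the receptor of stem cell factor, rose by 2.37 ± 0.30, with 10.81 and 10.66 in PE arrays, against 8.05 and 8.69 in ES arrays. Its ligand Kitl did not pass, at 8.10 and 7.36 in PE arrays and 7.78 and 7.11 in ES arrays. The member that fell was Cd24a, a surface glycoprotein, by 1.19, or by 0.93 as the mean of all its probe sets.

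Basement membrane genes and the enzymes that modify its collagen were followed next. Of 14 basement membrane genes 8 rose, 2 fell and 4 did not pass (median 2.04), and of 17 genes that fold, hydroxylate or crosslink collagen 11 rose and 0 fell (median 1.47), beside 7.68% of all genes that rose. Lama1, the laminin chain of early embryonic basement membranes, had 13.43 and 13.50 in PE arrays, against 8.22 and 8.05 in ES arrays, a change of 5.33 ± 0.38. The other chains of the same trimer moved with it: Lamb1 rose by 3.07 ± 0.25 and Lamc1 by 3.24 ± 0.39. Nid1, which links laminin to collagen IV, rose by 3.20 ± 0.54, and Sparc, a collagen-binding protein, by 4.02 ± 0.31.

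Both listed collagen IV chains rose. Col4a1 had 14.51 and 14.38 in PE arrays, against 9.10 and 8.39 in ES arrays, and Col4a2 had 13.86 and 13.92 in PE arrays, against 7.03 and 6.84 in ES arrays. These genes are arranged head to head and share a promoter region. The starts of their RefSeq transcripts lay 21 bases apart on opposite strands, and their windows of 300 bases (GRCm38.p6, chr8:11312555-11312854, + strand, for Col4a2 and chr8:11312777-11313076, - strand, for Col4a1) had 78 bases in common. The windows are shown because both genes of the pair rose, each written 5′ to 3′ on its own strand, with no capitals because neither held AGATAA or TGATAA:
Col4a2: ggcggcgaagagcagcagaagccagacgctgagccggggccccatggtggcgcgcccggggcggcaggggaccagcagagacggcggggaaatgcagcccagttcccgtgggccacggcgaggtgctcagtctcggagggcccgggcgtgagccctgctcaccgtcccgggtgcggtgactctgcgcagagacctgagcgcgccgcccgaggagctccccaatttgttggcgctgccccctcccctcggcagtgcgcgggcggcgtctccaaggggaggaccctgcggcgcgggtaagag
Col4a1: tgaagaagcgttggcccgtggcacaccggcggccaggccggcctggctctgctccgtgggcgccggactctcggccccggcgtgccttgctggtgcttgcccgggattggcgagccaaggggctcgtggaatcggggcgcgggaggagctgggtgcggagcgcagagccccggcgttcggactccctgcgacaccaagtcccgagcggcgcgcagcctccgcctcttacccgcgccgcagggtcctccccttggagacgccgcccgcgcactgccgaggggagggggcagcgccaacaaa
They held 33 and 37 CG dinucleotides, against 2 in the Dab2 window and 13 in the Foxa2 window shown above.

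Not every matrix gene of the membrane followed collagen IV and laminin. Fn1, fibronectin, fell by 2.17 ± 0.18, with 9.84 and 9.95 in PE arrays, against 11.84 and 12.30 in ES arrays. Col18a1, whose fragment is endostatin, fell by 3.01 ± 0.59, with 8.31 and 8.33 in PE arrays, against 11.36 and 11.29 in ES arrays. Hspg2, the proteoglycan perlecan, did not pass at 9.23 and 9.48 in PE arrays and 9.18 and 9.20 in ES arrays. Most matrix receptors did not pass: 2 of 19 rose, 0 fell and the median was -0.02, with Sdc4, a heparan sulfate proteoglycan, up by 2.66 ± 0.43 (1.74 as the mean of its probe sets) and the integrin chain Itga6 at 9.65 and 9.84 in PE arrays and 10.47 and 10.57 in ES arrays, not passing.

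Serpinh1 (Hsp47), the collagen chaperone of the endoplasmic reticulum, had 13.67 and 13.58 in PE arrays, against 7.95 and 8.25 in ES arrays, a change of 5.53 ± 0.19 (adjusted p = 5.97e-11). The catalytic chains of prolyl 4-hydroxylase followed, with P4ha2 up by 4.91 ± 0.33 and P4ha1 by 4.38 ± 0.24, while P4ha3 was at 3.59 in both PE arrays and 3.74 and 3.72 in ES arrays. The lysyl hydroxylases Plod1, Plod2 and Plod3 rose by 2.58, 3.35 and 1.99, of which Plod1 changed by 1.39 as the mean of its probe sets. The lysyl oxidases, which crosslink collagen outside the cell, did not: Lox had 5.09 and 5.17 in PE arrays and 5.18 and 5.09 in ES arrays, and Loxl1 and Loxl3 did not pass either.

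Of 32 genes of the secretory pathway 13 rose, 0 fell and 19 did not pass, beside 7.68% of all genes that rose, and the median change was 0.95. Creb3l2, a membrane-bound transcription factor of secretory and cartilage cells, had 10.17 and 10.06 in PE arrays, against 5.10 and 5.47 in ES arrays, a change of 4.83 ± 0.30. Kdelr3, a receptor that returns resident proteins to the endoplasmic reticulum, had 11.12 and 11.45 in PE arrays, against 6.19 and 6.89 in ES arrays, while the other 2 receptors of its family, Kdelr1 and Kdelr2, rose by 1.57 and 1.42. The coat subunits Sec23a and Sec24d, which pack cargo for export, each rose by 1.55. Among stress markers of the pathway, Xbp1 rose by 2.28 ± 0.21, Ddit3 (CHOP) did not pass at 8.83 and 8.38 in PE arrays and 7.47 and 7.89 in ES arrays, and Atf4 did not pass at 10.64 and 10.66 in PE arrays and 10.47 and 11.88 in ES arrays.

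Uptake and degradation of proteins is a main task of visceral endoderm. Of 17 genes of endocytosis and the lysosome 14 rose, 0 fell and 3 did not pass, with a median change of 1.73. Cubn (cubilin), the receptor for intrinsic factor and many other ligands, had 11.91 and 12.67 in PE arrays, against 6.62 and 6.17 in ES arrays, a change of 5.89 ± 0.41. Its membrane partner Amn rose by 3.18 ± 0.27 and its co-receptor Lrp2 (megalin) by 3.28 ± 0.61. The adaptor Dab2, which carries megalin into coated pits, had 13.37 and 13.57 in PE arrays, against 7.73 and 7.38 in ES arrays. All parts of this receptor complex that were listed therefore rose.

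Lysosomal proteases were among the genes that rose. Ctsh had 10.46 and 10.89 in PE arrays, against 5.40 and 5.18 in ES arrays, and Lgmn (legumain), which processes other cathepsins, had 12.32 and 12.40 in PE arrays, against 7.76 and 8.23 in ES arrays. Ctsb, Ctsc, Ctsd and Ctsl rose by 1.62 to 1.81, although as the mean of all probe sets Ctsc changed by 0.80, under 2-fold, and Ctsl by 1.04. The 3 that did not pass were Hexa, the folate receptor Folr1 and the IgG receptor Fcgrt.

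Of 18 secreted proteins typical of mature visceral endoderm 5 rose, 0 fell and 13 did not pass, beside 7.68% of all genes that rose, and the median change was 0.23. Ihh, a hedgehog ligand of visceral endoderm, rose by 2.07 ± 0.23, with 7.01 and 7.32 in PE arrays, against 4.99 and 5.19 in ES arrays. Mttp, which loads lipid onto lipoproteins, rose by 1.92 ± 0.17. Ttr rose by 1.16 ± 0.19 on its chosen probe set, the smallest change of its 4 probe sets, which ran from 1.16 to 4.75. Afp, the fetal plasma protein, had 5.32 and 5.16 in PE arrays and 4.81 and 4.82 in ES arrays, and Apoa1 had 5.75 and 6.17 in PE arrays and 5.44 and 5.96 in ES arrays. Cer1, a marker of anterior visceral endoderm, had 4.42 and 4.79 in PE arrays and 4.64 and 4.67 in ES arrays. Rbp4, the plasma carrier of retinol, rose by 1.90 ± 0.40, and without the second ES array 3 members of the list passed in place of 5.

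Most markers of other cells that the dish could hold did not pass, beside 7.68% of all genes that rose and 6.55% that fell. Of the definitive and gut endoderm list 0 of 12 rose and 1 fell, of nascent mesoderm 0 of 10 changed, of neuroectoderm 1 of 10 rose (none without the first PE array), of trophoblast 1 of 8 rose (2 without the second ES array) and 1 fell, and of endothelium and blood 3 of 12 rose and 1 fell. The median level of the same probe sets was, in that order of lists, 5.41, 5.65, 5.78, 5.37 and 5.26 in PE arrays and 5.38, 5.60, 5.77, 5.50 and 5.64 in ES arrays. Members that did not pass included Cxcr4, Pdx1, Mesp1, Sox1, Cdh5 and Tal1. They lay between 3.83 and 6.44 in the PE arrays and between 4.17 and 6.51 in the ES arrays. The neuroectoderm gene that rose was Zic1 (1.34), and among trophoblast genes Plac1 rose by 2.33 and Tfap2c, which ES cells express too, fell by 2.43, with 9.11 and 8.61 in PE arrays. Runx1, a hematopoietic factor also known from other epithelia, was the largest exception, with 8.84 and 8.64 in PE arrays, against 5.19 and 4.89 in ES arrays, a change of 3.70 ± 0.20 (1.58 as the mean of its 6 probe sets). Tek, the receptor of angiopoietins, rose by 1.97, with 10.19 and 9.30 in PE arrays, and Gata2 by 1.44 (0.95 as the mean of its probe sets, under 2-fold), while Pecam1, which ES cells express too, fell by 1.64 ± 0.31. Their part in the other results was not tested.

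Of 21 genes of FGF signalling 13 fell, 2 rose and 6 did not pass, beside 6.55% of all genes that fell, with a median change of -1.24. The ligands did not move together: Fgf4, Fgf15 and Fgf17 fell, Fgf3 rose, and Fgf5, Fgf8 and Fgf10 did not pass. Fgf4, the ligand that ES cells make themselves and the signal for primitive endoderm in the blastocyst, had 8.64 and 8.28 in PE arrays, against 11.91 and 12.01 in ES arrays, a change of -3.50 ± 0.40 (adjusted p = 1.02e-05), or of -2.25 as the mean of its 4 probe sets. Fgf15, another ligand, fell by 3.12 ± 0.26. Dusp6, the ERK phosphatase that is itself an ERK target, had 7.94 and 7.72 in PE arrays, against 10.96 and 10.43 in ES arrays. Etv5, an ETS factor downstream of ERK, fell by 3.05 ± 0.34, and the inhibitors Spry1, Spry4 and Spred1 by 1.51, 1.66 and 1.71. The groups did not overlap in any of these genes, which held for every gene that passed. Of all 18193 genes, 6410 were higher and 5942 lower in PE arrays with no overlap.

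The receptors also differed in direction. Fgfr3 rose by 2.77 ± 0.27 (1.51 as the mean of its probe sets), with 9.57 and 9.33 in PE arrays, against 6.88 and 6.48 in ES arrays. Fgfr1, the main FGF receptor of ES cells, fell by 1.52 ± 0.26, with 6.91 and 7.22 in PE arrays, against 8.73 and 8.44 in ES arrays. Fgfr2, a receptor of primitive endoderm in the blastocyst, did not pass at 8.54 and 8.19 in PE arrays and 7.82 and 8.05 in ES arrays. The ligand Fgf3 rose by 2.18 ± 0.24, with 7.88 and 8.34 in PE arrays, against 5.93 and 5.92 in ES arrays.

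LIF was in the medium of both states. Of 12 genes of its pathway 3 rose, 2 fell and 7 did not pass, beside 7.68% of all genes that rose and 6.55% that fell. One of the falls, Pim1, changed by -1.66 with all arrays and by -1.27 without the second ES or the second PE array. Lif itself rose by 2.17 ± 0.31 (1.35 as the mean of its probe sets), with 8.39 and 8.11 in PE arrays, against 6.27 and 5.90 in ES arrays. Its receptor Lifr was at 12.05 and 11.69 in PE arrays and 10.80 and 11.06 in ES arrays, under 2-fold, and Stat3 did not pass at 9.47 and 9.53 in PE arrays and 9.17 and 9.25 in ES arrays. Socs2, a feedback inhibitor of cytokine receptors, fell by 2.21 ± 0.30, whereas Socs3 was higher by just under 2-fold, at 11.30 and 11.19 in PE arrays and 10.09 and 10.45 in ES arrays.

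Genes of the Nodal pathway changed in both directions. Of 15 genes 6 fell, 2 rose and 7 did not pass. Nodal had 8.90 in both PE arrays, against 11.95 and 11.76 in ES arrays, a change of -2.96 ± 0.32. Its co-receptor Tdgf1 (Cripto) had 9.91 and 10.28 in PE arrays, against 12.97 and 13.23 in ES arrays, and the related ligand Gdf3 fell by 3.34 ± 0.19. Lefty1, the induced antagonist, fell by 2.20 ± 0.33, and the related Lefty2 and the receptor Acvr2b by 1.33 and 1.32. Both falls were fragile. Lefty2 changed by -0.66 without the second ES array, and by -1.35 and -1.30 without the first and the second PE array. Acvr2b changed by -0.48 as the mean of its probe sets, which ran from -1.32 to 0.37. Furin, a protease that cleaves the Nodal precursor, rose by 1.93 ± 0.32, and Cfc1, a second co-receptor, did not pass at 7.80 and 7.92 in PE arrays and 7.15 and 6.62 in ES arrays. Smad2, a transducer, rose by 1.74 ± 0.14 (1.12 as the mean of its probe sets), and Smad4 did not pass at 12.52 and 12.29 in PE arrays and 11.90 and 12.03 in ES arrays.

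BMP ligands moved in opposite directions. Of 23 genes of the pathway 9 rose, 1 fell and 13 did not pass. Bmp2, a signal of visceral endoderm to the epiblast, had 9.37 and 9.66 in PE arrays, against 4.19 and 4.09 in ES arrays, a change of 5.38 ± 0.43 (adjusted p = 2.83e-07). Bmp4, a ligand that ES cells make, was lower in both PE arrays, at 7.06 and 6.97, against 9.42 and 9.54 in ES arrays, a change of -2.47 ± 0.69 (adjusted p = 0.013). The call of Bmp4 was lost without any 1 of the 4 arrays, with adjusted p between 0.0541 and 0.067.

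Secreted modulators of BMP rose as well. Fst (follistatin), which binds activins and some BMPs, had 12.23 and 12.26 in PE arrays, against 7.44 and 7.24 in ES arrays, a change of 4.91 ± 0.35, and Bmper, a BMP-binding regulator, was at 11.72 and 11.48 in PE arrays, against 4.97 and 4.55 in ES arrays. Msx2, a homeobox target of BMP, rose by 3.24 ± 0.28, or by 1.80 as the mean of its probe sets. The Id genes, the usual early targets, did not move together: Id4 rose by 2.69 ± 0.39, and Id1, Id2 and Id3 did not pass, with Id1 at 8.67 and 8.90 in PE arrays and 9.30 and 8.69 in ES arrays.

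**Figure D3:**
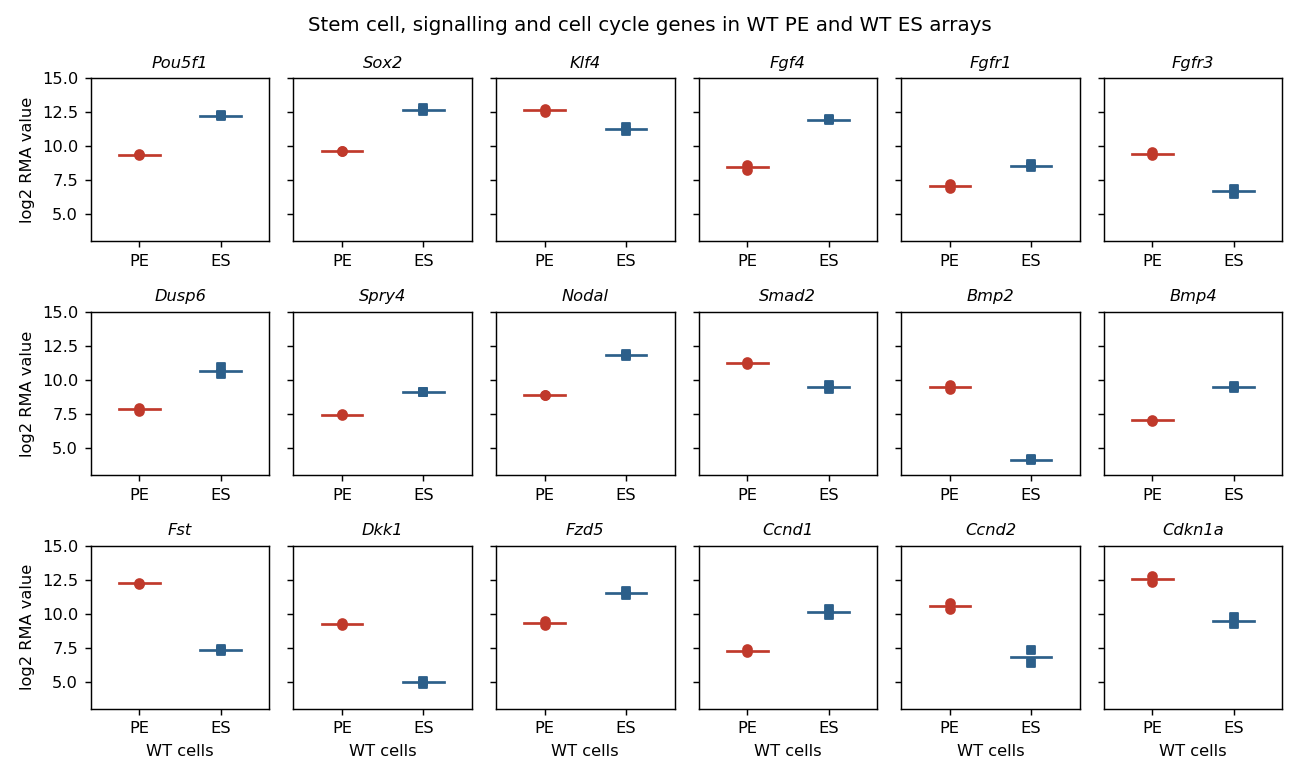
Log2 RMA values (y axis) of 18 pluripotency, signalling and cell cycle genes in WT PE arrays (left, red circles) and WT ES arrays (right, blue squares), with a bar at each mean of 2 arrays. Ligands and targets such as Fgf4, Nodal and Dusp6 are lower in PE arrays, and Bmp2, Fst, Dkk1, Fgfr3, Ccnd2 and Cdkn1a are higher.

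Of 29 genes of Wnt signalling 4 rose, 2 fell and 23 did not pass, beside 7.68% of all genes that rose and 6.55% that fell, and without the first PE array 1 gene was lower in place of 2. Dkk1, a secreted Wnt antagonist, had 9.30 and 9.16 in PE arrays, against 5.06 and 4.84 in ES arrays, a change of 4.28 ± 0.36. Tcf7l2, a DNA-binding partner of beta-catenin, rose by 3.36 ± 0.25, and Fzd5, a Wnt receptor, fell by 2.25 ± 0.34. The target Axin2 did not pass, at 7.75 and 8.12 in PE arrays and 8.76 and 8.26 in ES arrays, nor did Ctnnb1 (beta-catenin), at 13.82 and 13.55 in PE arrays and 13.79 and 13.70 in ES arrays.

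Vitamin A genes changed in both directions. Of 16 genes 6 rose and 3 fell, with 1 lower when the first ES array was left out. Cyp26a1, the enzyme that breaks down retinoic acid, had 11.67 and 11.80 in PE arrays, against 7.12 and 6.87 in ES arrays, a change of 4.74 ± 0.24 (adjusted p = 3.72e-09). Rdh10, which makes the precursor retinaldehyde, rose by 2.11 ± 0.35. The receptors Rarb and Rarg lay on opposite sides, at 1.86 ± 0.28 and -2.18 ± 0.24.

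Among cell cycle drivers the largest changes were in regulators of G1. Of 26 drivers 6 fell, 1 rose and 19 did not pass, and of 16 inhibitors and p53 targets 5 rose and 2 fell. Among D cyclins, Ccnd2 had 10.76 and 10.39 in PE arrays, against 7.33 and 6.37 in ES arrays, and Ccnd1 had 7.39 and 7.15 in PE arrays, against 10.36 and 9.91 in ES arrays. The changes were 3.72 ± 0.24 and -2.87 ± 0.31, so the 2 cyclins moved in opposite directions. Cdk6, a kinase partner of D cyclins, fell by 2.68 ± 0.29. Without the first PE array 3 drivers in place of 6 passed as lower.

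Cdkn1a (p21), a CDK inhibitor and p53 target, had 12.81 and 12.33 in PE arrays, against 9.27 and 9.73 in ES arrays, a change of 3.07 ± 0.45. Btg2, an antiproliferative p53 target, rose by 2.45 ± 0.30, and Ccng1 and Mdm2, further p53 targets, by 1.39 and 1.13, of which Mdm2 changed by 0.86 as the mean of all its probe sets. Other p53 targets did not pass or fell. Bbc3 (Puma) changed by -0.16 ± 0.22, which did not pass, and Gadd45a fell by 1.86 ± 0.41. The proliferation marker Mki67 did not pass at 12.17 and 12.46 in PE arrays and 11.90 and 12.05 in ES arrays.

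Of 11 genes of coagulation and plasminogen activation 7 rose, 1 fell (none without the second ES array) and 3 did not pass, with a median change of 2.27. Plat, tissue plasminogen activator, had 11.94 and 11.70 in PE arrays, against 5.82 and 5.77 in ES arrays, and its 2 probe sets changed by 0.66 and 6.02 (mean 3.34), whereas Plau, the urokinase type, did not pass at 4.81 and 4.80 in PE arrays and 4.64 and 4.77 in ES arrays. F3, tissue factor, rose by 4.52 ± 0.34 and Procr, the protein C receptor, by 4.04 ± 0.46. Thbd (thrombomodulin), a marker of parietal endoderm, rose by 2.80 ± 0.42, with 7.57 and 7.15 in PE arrays, against 4.70 and 4.41 in ES arrays.

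Epithelial genes were divided. Of 19 junction and keratin genes 5 rose, 4 fell and 10 did not pass, with 3 higher when the second PE array was left out. Krt8, a simple epithelial keratin, had 13.18 and 13.19 in PE arrays, against 10.63 and 10.30 in ES arrays, a change of 2.72 ± 0.30. Epcam, an adhesion molecule of ES cells and epithelia, fell by 2.17 ± 0.39 (by 1.11 as the mean of its probe sets), and both PE arrays lay below the ES arrays, which were at 13.15 and 13.13. Cdh1 (E-cadherin) was lower in both PE arrays, at 10.48 and 10.53, against 12.22 and 12.16 in ES arrays, but did not pass (-1.69 ± 0.74, adjusted p = 0.105). The error of Cdh1 comes from all 10 groups of the fit. Of the mesenchymal genes Snai1, a repressor of Cdh1 known from parietal endoderm, rose by 2.00 ± 0.20, with 7.29 and 7.13 in PE arrays, against 5.20 and 5.23 in ES arrays. Vim rose by 1.03 ± 0.25, close to the 2-fold limit, and by 0.62 and 0.92 without the second ES or the second PE array. Twist1, Zeb1 and Zeb2 did not pass.

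Of 23 germ line genes 14 fell, 0 rose and 9 did not pass, beside 6.55% of all genes that fell, with a median change of -2.30, and 9 were lower when the lowest 40% of genes were left out. Mael, a protein of piRNA granules, had 4.03 and 3.91 in PE arrays, against 7.58 and 7.21 in ES arrays, a change of -3.43 ± 0.20, and Stk31, a testis kinase-like protein, fell by 3.21 ± 0.18. Ddx4 (Vasa), an RNA helicase of germ cells, had 5.99 and 5.79 in PE arrays, against 8.79 and 8.72 in ES arrays. Members already near the lowest signals in ES cells, such as Tdrd1, Tex101 and Asz1, did not pass.

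Of the DNA methylation machinery, the TET enzymes had the largest falls. Of 15 genes 4 fell and 1 rose, and Tet1, which oxidises 5-methylcytosine, had 9.05 and 9.44 in PE arrays, against 12.04 and 12.02 in ES arrays, a change of -2.78 ± 0.26. The changes of the 4 Tet1 probe sets ran from -3.15 to 0.03. Tet2 fell by 2.22 ± 0.17, and Tet3 did not pass at 6.57 and 6.26 in PE arrays and 5.85 and 5.84 in ES arrays. The de novo methyltransferases were lower by less than 2-fold, Dnmt3a at 8.30 and 8.58 in PE arrays and 9.44 and 9.34 in ES arrays, and Dnmt3b at 12.06 and 12.30 in PE arrays and 13.06 and 12.63 in ES arrays. Dnmt1, the maintenance enzyme, did not pass at 10.84 and 11.15 in PE arrays and 11.22 and 11.26 in ES arrays.

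Imprinted genes changed without a common direction, 5 of 20 higher and 8 lower. Igf2, a paternally expressed growth factor, had 10.18 and 10.42 in PE arrays, against 7.58 and 7.54 in ES arrays, a change of 2.74 ± 0.59 (1.73 as the mean of its probe sets), and Igf2r, its scavenger receptor, rose by 2.08 ± 0.24. Cdkn1c (p57), a maternally expressed CDK inhibitor, fell by 2.34 ± 0.32, and Phlda2, its neighbour in the same imprinted cluster, by 2.04 ± 0.15. Mest fell by 2.10 ± 0.36.

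Dex activates the glucocorticoid receptor of any cell that makes it, so targets of that receptor were followed. Of 19 listed genes, which include the receptor gene itself, none rose and 2 fell, with a median change of -0.09. Of all genes 7.68% rose and 6.55% fell. The fall of Pdk4 was 1.15 with all arrays and 0.92 without the second ES array. Tsc22d3 (Gilz) had 6.98 and 7.10 in PE arrays and 6.90 and 6.99 in ES arrays, and Per1 changed by 0.46 ± 0.31. Fkbp5, elsewhere a strongly induced target, fell by 2.63 ± 0.38 (by 1.29 as the mean of its probe sets), with 8.39 and 8.55 in PE arrays, against 11.02 and 11.17 in ES arrays. The receptor gene Nr3c1 was at 7.94 and 7.25 in PE arrays and 7.98 and 7.18 in ES arrays.

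Metabolic lists were read beside the 7.68% of all genes that rose and 6.55% that fell. Of 17 genes of glycolysis and glucose entry 1 rose and 2 fell, with a median of 0.16. The gene that rose, Hk1, changed by 1.08, by 0.85 as the mean of its probe sets and by 0.67 without the first ES array. The falls were Pdk1, a kinase that restrains pyruvate entry into mitochondria (-2.03 ± 0.41), and Pfkp, a phosphofructokinase (-1.74 ± 0.23). The changes of the 4 Pdk1 probe sets ran from -2.39 to 0.14. Of 15 genes of cholesterol synthesis 4 rose and 0 fell, with a median of 0.33, and 2 rose without the second ES array or without the second PE array. Sc5d, a late enzyme, had 9.65 and 9.56 in PE arrays, against 8.49 and 8.11 in ES arrays, but changed by 0.27 as the mean of all its probe sets (adjusted p = 0.189). The early enzyme Hmgcs1 did not pass at 12.76 and 12.46 in PE arrays and 12.65 and 11.94 in ES arrays.

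The study took genes that responded to Gata4 in DKO mesoderm and were higher there than in WT mesoderm with Dex. It sorted them into a group that also responded in ES cells and a second one that did not. This was a separate time course on Agilent arrays with mesoderm grown on OP9 stroma. Of 50 measured genes of the first group 20 rose and 4 fell in PE cells, and of 38 of the second 10 rose and 0 fell. Of all genes 7.68% rose and 6.55% fell. The response of Gata4GR ES cells to Dex was part of that choice, although in another experiment, so the counts are not independent evidence of a direction. Pla2g12b, a phospholipase-related protein of lipoprotein secretion, had 10.13 and 10.49 in PE arrays, against 5.24 and 5.07 in ES arrays, and Myo5b, a motor of recycling endosomes, had 9.15 and 9.16 in PE arrays, against 4.74 and 4.63 in ES arrays (a change of 2.22 as the mean of its probe sets). In the second group Vcam1, an adhesion molecule, rose by 3.24 ± 0.48 (1.09 as the mean of its probe sets) and Tbx18, a T-box factor, by 3.20 ± 0.26, while the cardiac genes Nkx2-5 and Tnnt2 did not pass.

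Gata4 is also expressed in mesoderm, so PE cells were set against WT Flk1(+) mesoderm, and 1053 genes (5.79%) were higher in PE and 845 (4.64%) lower. The 2 mesoderm arrays, of which replicate 1 lacked the transgene, correlated at 0.979 and were at least 2-fold apart for 880 genes, a wider spread than in PE or ES cells. The comparison shares the PE arrays with the one above, and only values are set side by side. Sox7 was at 11.52 and 11.39 in PE arrays, against 5.46 and 5.38 in mesoderm (6.03 ± 0.23). Cubn was higher than in mesoderm by 7.32 ± 0.41 and Srgn by 6.68 ± 0.28. Pdgfra did not reach the 2-fold limit, at 13.19 in both PE arrays and 11.90 and 12.83 in mesoderm, which had been sorted with an antibody to its protein (0.83 ± 0.23). Nrp1 had 10.29 and 10.09 in PE arrays and 11.68 and 10.67 in mesoderm (-0.98 ± 0.38, adjusted p = 0.0898), and Vegfc, a lymphatic growth factor, was lower in PE than in mesoderm by 3.68 on the log2 scale.

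WT mesoderm grown on with Dex, in which Gata4GR was active in a different starting cell, held some of the leading genes at high and others at low levels. Col4a1 was at 14.51 and 14.38 in PE arrays and at 13.90 and 13.89 in Dex+ arrays, and Dab2 at 13.37 and 13.57 in PE arrays and 11.80 and 12.26 in Dex+ arrays. Foxq1 had 10.57 and 10.27 in PE arrays, against 9.19 and 10.19 in Dex+ arrays. In WT mesoderm grown on without Dex, Col4a1 was at 13.95 in both arrays and Dab2 at 11.79 and 11.99. These 2 genes were thus at similar levels with and without Dex, whereas Foxq1 was at 5.56 and 6.62 without it. Sox7 was at 6.92 and 7.25, Srgn at 6.50 and 6.44, Cubn at 6.38 and 6.28 and Pth1r at 5.42 and 5.39 in the Dex+ arrays, all more than 4 log2 units below their PE values. These levels are given as a description without a test.

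The same step in DKO cells, which shares no array with the WT comparison, gave 1480 genes higher (8.13%) and 1488 lower (8.18%). Same-numbered PE and ES arrays of the genotypes shared scan day and chip lot. Any difference from these between PE and ES arrays is therefore in both comparisons, and both use the same pooled error. The deleted genes were lower there: Dnmt3b averaged 6.75 in DKO PE and 8.92 in DKO ES arrays, against 12.06 and 12.30 in WT PE and 13.06 and 12.63 in WT ES arrays, and Dnmt3a averaged 6.41 in DKO PE and 6.28 in DKO ES arrays. Of the genes that rose in WT cells 1086 also rose in DKO cells, which is 73.4% of the DKO list and 77.7% of the WT list. Of those that fell 932 also fell, 62.6% of the DKO list and 78.3% of the WT list. The change had the same sign in DKO cells for 1382 of the 1397 genes that rose and 1178 of the 1191 that fell.

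**Figure D4:**
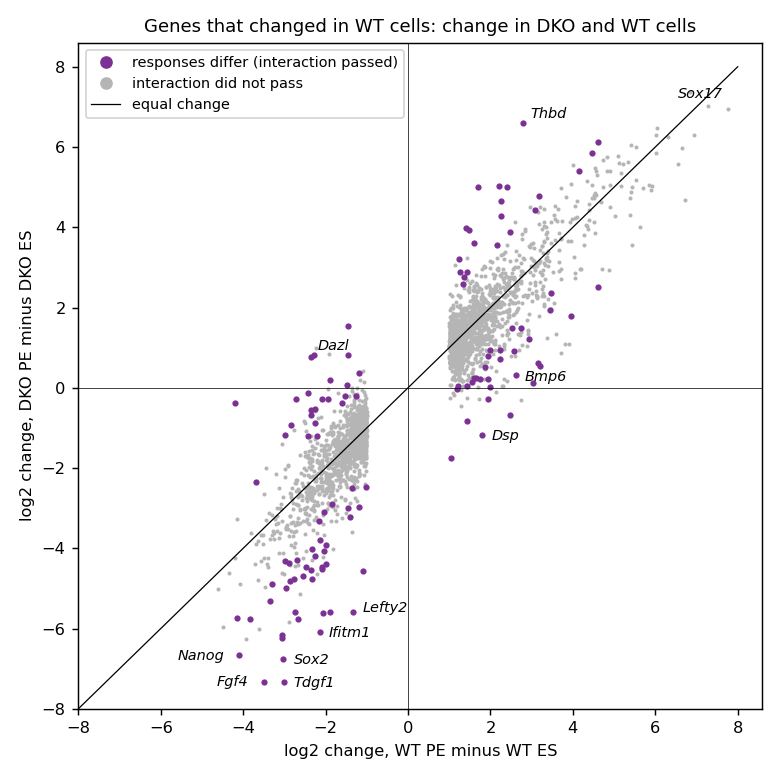
Log2 change of DKO cells (y axis, DKO PE minus DKO ES) against that of WT cells (x axis, WT PE minus WT ES) for the genes that changed in WT cells. The line marks equal change, purple genes have responses that differ by the interaction test, and several stem cell genes such as Fgf4 and Tdgf1 lie below the line at the lower left.

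The difference of the 2 responses, DKO change minus WT change, was tested directly. It was positive for 93 genes (0.511%), whose change was larger or less negative in DKO cells. It was negative for 155 genes (0.852%), whose change was smaller or more negative in DKO cells. This count of 248 fell to 128 with the lowest 40% of genes left out, and to between 132 and 156 without any 1 PE array of either genotype or the second WT ES array. Among the genes that rose in WT cells 52 differed, and the increase was weaker in DKO cells for 31 of them and stronger for 21. Among those that fell 67 differed, and the decrease was weaker in DKO cells for 24 and stronger for 43. The genes of the pluripotency network that differed all fell further in DKO cells. Fgf4 was at 4.99 and 4.59 in DKO PE arrays and 12.20 and 12.04 in DKO ES arrays, a change of -7.33, against -3.50 in WT cells (difference -3.83 ± 0.57, adjusted p = 0.00231). Tdgf1 had 6.12 and 5.37 in DKO PE arrays, against 9.91 and 10.28 in WT PE arrays, with similar levels in ES arrays of both genotypes. WT PE cells thus kept a signal of these genes that DKO PE cells had at a lower level, with 1 clone per genotype. Bmp6, a BMP ligand, changed by 0.31 in DKO and 2.62 in WT cells (difference -2.31 ± 0.48, adjusted p = 0.0259), and Dsp (desmoplakin), a desmosome protein, changed by -1.17 in DKO and 1.80 in WT cells. Thbd rose more in DKO cells, to 11.51 and 11.31 in DKO PE arrays, against 7.57 and 7.15 in WT PE arrays.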

How the data were processed

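RNA was labelled in 2 amplification cycles and hybridised to whole-genome mouse arrays of Affymetrix with 1 colour. The authors summarised the arrays by RMA, and the deposited values are log2 expression per probe set; whether all 20 arrays were summarised together is not given in the sources used here. The instrument files, deposited with the values, gave scan day and chip lot. Of 45101 probe sets, 64 were controls, 34945 had 1 gene symbol, 932 several and 9224 none in the platform annotation. For 18193 genes the probe set with the brightest average was taken, and 9010 of them had more than 1. No value column was left unmapped.

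Changes were tested with limma 3.58.1 in R 4.3.3 (lmFit and eBayes), with 1 mean for each of 10 groups of 2 arrays, 10 residual and 4.54 prior degrees of freedom. Benjamini-Hochberg adjusted p-values cover all genes, and a gene passed with an adjusted p under 0.05 and at least 2-fold change. Errors given as ± are the model SE. The fit was tested on simulated data. The number of arrays limits the precision. The methods of the study used SAM, which was not run here.

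The members and the 34 gene lists were chosen with earlier results of these data known, and 630 of 669 list entries were measured, 13 under another symbol. Genes were named as the 15 largest increases and 15 largest decreases that passed with no overlap of the arrays, leaving out clone and locus names, and for each list the members with the largest change and others whose role in the pathway called for them. Gata4, Dnmt3a and Dnmt3b were always named. Alternatives were another set of arrays in the fit, a replicate block, scan day as a random block, other probe set rules, a filter on low signals, an intensity trend, median centring, other fold minimums and leaving out each array.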

Additional observations from a re-analysis of the deposited data

Results flagged for a closer look

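The response to PE differentiation differed between the genotypes, by the interaction test of limma with an adjusted p under 0.05 and at least 2-fold, for 40 of the genes that were followed by name or list. The values are DKO change minus WT change on the log2 scale, with 1 clone per genotype, and no cause was tested.

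The change was smaller or more negative in DKO cells for 26 genes: Usp17la (-4.70), Fgf5 (-4.57), Tdgf1 (-4.32), Lefty2 (-4.27), Ifitm1 (-3.94), Fgf4 (-3.83), Ubtfl1 (-3.83), Sox2 (-3.73), Id3 (-3.22), Etv5 (-3.18), Otx2 (-3.10), Dsp (-2.98), Nanog (-2.56), Mest (-2.36), Bmp6 (-2.31), Nodal (-2.02), Gdf3 (-1.98), Pou5f1 (-1.96), Slc27a2 (-1.93), Cd24a (-1.79), Nr0b1 (-1.59), Dnmt3b (-1.51), Gadd45b (-1.39), Fn1 (-1.16), Sqle (-1.13) and Sycp1 (-1.05). Several of them are ES cell genes, and Sox2, Nanog, Pou5f1, Nodal, Gdf3 and Nr0b1 fell in both genotypes but further in DKO cells. Usp17la changed by -4.71 in DKO and -0.01 in WT cells, and its DKO ES arrays were at 10.48 and 9.27, against 6.56 and 4.99 in WT ES arrays.

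The change was larger or less negative in DKO cells for 14 genes: Phf11d (1.01), Psma8 (1.36), Aqp8 (1.49), Mirg (1.56), Sycp3 (1.71), Grhl2 (1.79), Asz1 (2.28), Slc25a31 (2.44), Rpl39l (3.11), Dazl (3.12), Tcim (3.21), Ptger3 (3.31), Thbd (3.79) and Cck (3.84). Germ line and imprinted genes stood on both sides, with Asz1, Dazl, Sycp3, Slc25a31 and Mirg here and Sycp1 and Mest above, and no test of that grouping was made.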

How the results depend on the processing

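The counts of 1397 genes higher and 1191 lower rested on the fold minimum: with none, 2703 and 2671 passed, and with at least 4-fold, 432 and 322. The 248 genes whose response differed between genotypes became 128 without the lowest 40% of genes, where fewer genes were tested, and 132 to 204 with 1 array left out (132 without DKO PE replicate 2, 156 without DKO PE replicate 1, 137 and 139 without WT PE replicates 1 and 2, and 146 without WT ES replicate 2). With 1 array left out, 1272 to 1422 genes were higher, 1111 to 1181 lower and 1878 to 1984 changed alike in both genotypes (2018 with all arrays), the lone array being assumed to vary like the other groups. Hnf4a reversed to -0.00327 without _x_at and _s_at probe sets. As the mean of all probe sets 1027 genes were higher and 1004 lower, and centring each array on its median gave 1332 and 1253.

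A replicate block gave 1400 genes higher, 1191 lower, 2015 in both genotypes and 256 that differed. The labels do not say that a number marks a shared culture. The deviations of same-numbered arrays correlated at 0.012 between WT PE and WT ES, 0.066 between DKO PE and DKO ES, 0.36 between DKO PE and WT PE and 0.190 between DKO ES and WT ES, where same-numbered arrays of the genotypes shared scan day and chip lot, and the block ended no call of the 615 genes followed. Of these, 67 lost their call under some alternative, 43 with 1 WT array left out and 36 as the mean of all probe sets, while 46 were called only under an alternative. With 2 arrays a group, small changes and weak signals stay uncertain.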

Other observations

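Gene families, formed from the letters before the first digit of the symbol and kept with at least 8 measured genes (293 families), were read for further shifts. They were chosen after their values were seen and are given as a description, beside 7.68% of all genes that rose and 6.55% that fell.

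Of 30 sorting nexins, which shape endosomal membranes, 10 rose (33.3%) and 0 fell, with a median change of 0.58. Snx33 had 9.38 and 9.11 in PE arrays, against 5.74 and 5.33 in ES arrays, a change of 3.71 ± 0.24. Among solute carriers 39 of 347 rose (11.2%) and 20 fell (5.76%), and Slc39a8, a zinc and manganese importer, had 11.54 and 11.18 in PE arrays, against 7.15 and 6.55 in ES arrays.

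Of 35 DEAD-box helicases 9 fell (25.7%), and of 11 genes of the PARP family 5 fell (45.5%), while 1 rose in each and the others did not pass. Ddx58 (RIG-I), a sensor of viral RNA, had 7.18 in both PE arrays, against 9.43 and 9.39 in ES arrays, and Parp12, an interferon-induced member, had 4.95 and 5.12 in PE arrays, against 7.25 and 7.45 in ES arrays. Zinc finger genes of the Zfp series fell in 47 of 336 cases (14%) and rose in 15 (4.46%), and Zfp936 had 5.57 and 6.08 in PE arrays, against 9.69 and 9.12 in ES arrays.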
